A study of Arabidopsis thaliana with 4 samples.

Results

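Heat shock proteins and heat shock factors were taken from the transcriptomes of Arabidopsis thaliana seedlings as the genes whose name starts with HSP or HSF followed by a digit, or by A, B or C and a digit. This rule found 60 of the 34262 genes in the authors' deposited tables. Of these, 48 reached 1 RPKM (reads per length of exon and size of library) as the larger group mean of at least 1 table and are described by class, and the other 12 lay under 1 RPKM in every table. The 48 comprised 12 class A, 4 class B and 1 class C heat shock factors, 13 small heat shock proteins, 2 HSP60, 9 HSP70 and 7 HSP90 genes. No gene of the HSP100 class carried such a name in the tables.

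The seedlings were 14 days old, of ecotype Col-0 where the labels give one, and grew in long days at 22 °C, so no group had been heat-treated per the labels. The 4 genotypes were WT, hda6 (HDA6 is a histone deacetylase), ldl1/2 (the LSD1-like histone demethylases LDL1 and LDL2) and hda6/ldl1/2, with 1 GEO sample for each. Total RNA was sequenced with paired reads of 150 nt, and each mutant was compared with the same WT in a table of the authors' own. No source used here names the mutant alleles, and RNA of whole seedlings cannot tell fewer cells of a type from less RNA per cell.

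Heat shock factors are transcription factors that bind inverted repeats of a short GAA unit, the heat shock element, in front of chaperone genes. In plants, class A factors activate transcription and most class B factors act as repressors that are themselves induced by heat. Their targets include small heat shock proteins, which hold unfolding proteins, and the HSP60, HSP70, HSP90 and HSP100 chaperones, which refold them using ATP. Some chaperones are made at high levels without heat, while many small heat shock proteins of leaves are nearly silent until heat induces them.

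The tables were checked on the targeted transcripts first. In ldl1/2, LDL1 and LDL2 fell, at -0.79 and -1.17 (log2 fold change) in the authors' deposited table. In the hda6/ldl1/2-labelled samples they stood at 0.05 and -0.32 in the authors' deposited table, with neither past an FDR of 0.05. HDA6 was not lower in either group with its label and rose there, by 0.53 in hda6 and by 0.59 in the hda6/ldl1/2-labelled samples, per the authors' deposited tables. The transcripts of LDL1 and LDL2 thus go against the label hda6/ldl1/2, and each direction given for that group below is that of the samples so labelled. Defining seedling markers were present, with RBCS1A at 8385 RPKM in WT and the root genes CASP1 and PHT1;1 at 20.35 and 30.29 RPKM, while the seed genes OLEO1 and CRA1 and the pollen gene SWEET5 lay under 1 RPKM in every group and AT5G45880 was listed at 0. The green-tissue marker LHCB2.1 rose in hda6 (1.26) and in the hda6/ldl1/2-labelled samples (1.18) and fell in ldl1/2 (-0.72), as did LHCB3 at 0.94, 1.08 and -0.49, while RBCS1A stood at 0.03, 0.17 and -0.16, in the authors' deposited tables. The part of these tissue markers in the results below was not tested.

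Although GEO lists 1 sample for each genotype, low group means in the authors' deposited tables fell on whole-read steps of 3 WT libraries (48.59, 50.41 and 51.62 M reads) and 2 libraries for each mutant. The mutant libraries held 47.33 and 47.51 M reads in hda6, 40.21 and 42.61 M in ldl1/2, and 43.81 and 49.38 M in the hda6/ldl1/2-labelled samples. From these sizes the reads of each library could be worked out for a group mean that a table prints, which is only the larger of both. Values called recovered are such library values, and values called rebuilt are lower group means computed from the deposited fold change, which have no library values behind them. No source used here says whether the libraries were separate plants or repeats of 1 sample, and the p-values of the authors may therefore measure technical spread only.

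In each comparison more of the 48 members passed the authors' test as lower than as higher. The words rose, fell and changed are used below only for a deposited FDR under 0.05, and an implied SE is the standard error of a log2 fold change at which a normal test gives the deposited p-value. In hda6, 2 members rose and 5 fell (10.4% of members), where 4.38% of the 18985 genes of at least 1 RPKM rose and 4.31% fell by the authors' deposited table. In ldl1/2, 1 member rose and 5 fell (10.4%), beside 4.41% and 4.09% of all genes in the authors' deposited table. In the hda6/ldl1/2-labelled samples, 3 members rose and 7 fell (14.6%), beside 9.59% and 7.82% of all genes in the authors' deposited table. The median log2 fold change over members was -0.11 in hda6, -0.02 in ldl1/2 and -0.08 in the hda6/ldl1/2-labelled samples, against -0.01 over all genes in each of the authors' deposited tables. As ratios of RPKM means the members' medians were -0.17, 0.01 and -0.21 in that order and those of all genes -0.07, 0.03 and -0.14, so that the sign in ldl1/2 turns with the scaling. By size alone, at 1 or more on the log2 scale without regard to the FDR, 2 members were higher and 1 lower in hda6 (2.01% and 2.00% of all genes), 0 and 3 in ldl1/2 (1.70% and 1.46%), and 2 and 4 in the hda6/ldl1/2-labelled samples (3.39% and 2.64%), in the authors' deposited tables. These are counts and medians without a test of the list, and the 3 comparisons share their WT. Of the 48 members, 16 (33.3%) changed in at least 1 comparison and 32 in none, where 24.0% of the 19410 genes of at least 1 RPKM in any of the authors' deposited tables changed in at least 1.

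By class, of the 17 factors 8 (47.1%) fell in at least 1 comparison and none rose, where 12.2% of all genes fell and 13.0% rose in at least 1 of the authors' deposited tables, with HSFB2A the only member of any class that fell in all 3. The 4 members that rose in any comparison were all small heat shock proteins, and 3 others of that class fell. Among genes so named in the tables, no HSP60 or HSP70 gene changed, and of the HSP90 genes HSP90-1 alone did. Genes of the HSP70 family under other names did fall and are given near the end. No difference between classes was tested.

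**Figure D1:**
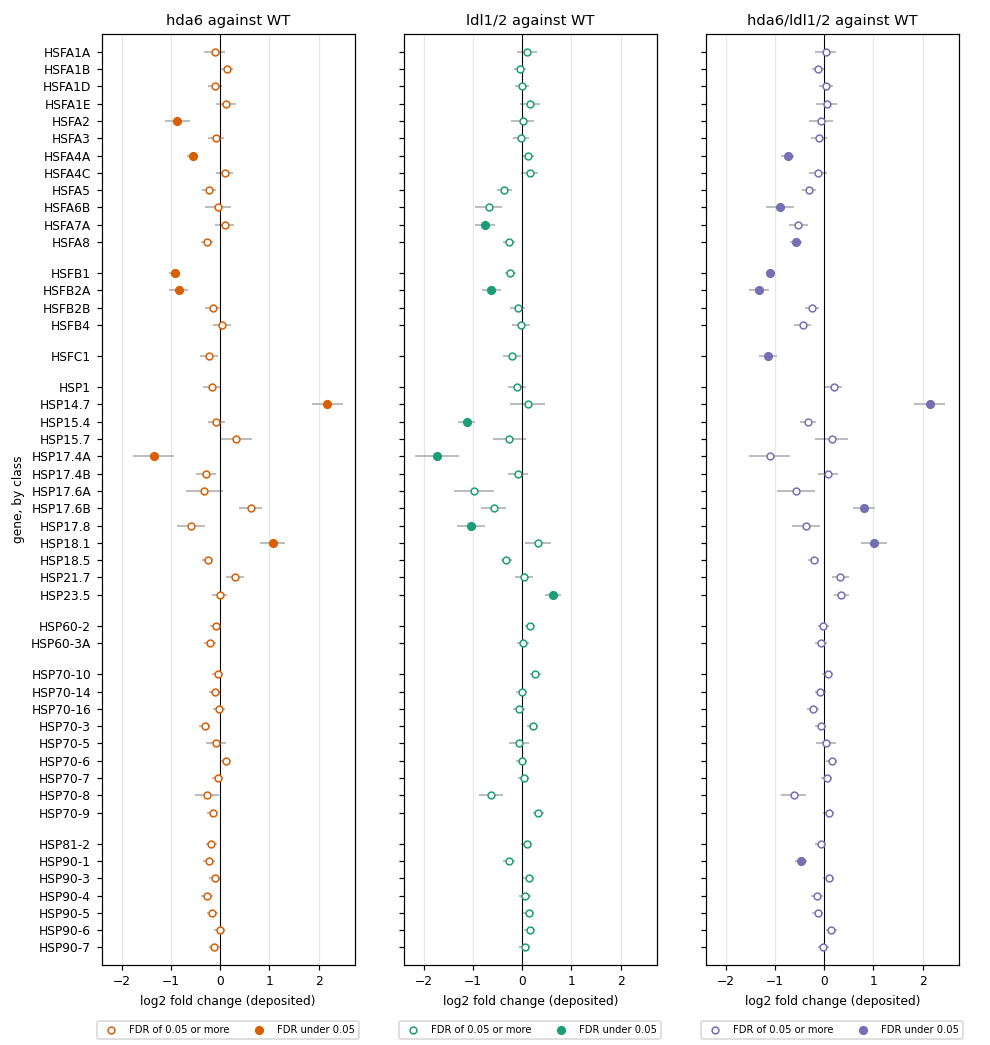
Log2 fold changes (horizontal axis) of the 48 members, grouped by class, as deposited for each mutant against WT. Bars are the standard errors that the deposited p-values imply (none is drawn for HSFB1 in hda6/ldl1/2, where the p-value is listed as 0), filled points have a deposited FDR under 0.05, and the filled points of the factor classes all lie left of 0.

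The upstream sequences of 5 members are shown. Among small heat shock proteins of at least 1 RPKM, HSP14.7 and HSP18.1 had the largest rises and HSP17.4A and HSP15.4 the largest falls. HSFA7A is the changed factor with the most heat shock element runs. The 5 sequences are given below. They were read from the TAIR10.1 reference, end at the base before the annotated start of the gene and are written 5′ to 3′ on the strand of the gene. Capitals mark heat shock element cores, GAANNTTC or TTCNNGAA, each of which is its own reverse complement, so that both strands are covered. Where both cores overlap they form a run of 3 GAA units.
HSP17.4A: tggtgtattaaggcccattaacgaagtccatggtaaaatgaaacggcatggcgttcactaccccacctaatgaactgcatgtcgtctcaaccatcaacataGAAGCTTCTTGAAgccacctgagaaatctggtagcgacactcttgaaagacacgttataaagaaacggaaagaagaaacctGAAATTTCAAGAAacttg
HSFA7A: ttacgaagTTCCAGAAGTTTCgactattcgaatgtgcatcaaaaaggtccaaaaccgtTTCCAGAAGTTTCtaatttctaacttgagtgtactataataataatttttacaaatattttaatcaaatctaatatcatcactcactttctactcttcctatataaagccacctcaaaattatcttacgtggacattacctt
HSP15.4: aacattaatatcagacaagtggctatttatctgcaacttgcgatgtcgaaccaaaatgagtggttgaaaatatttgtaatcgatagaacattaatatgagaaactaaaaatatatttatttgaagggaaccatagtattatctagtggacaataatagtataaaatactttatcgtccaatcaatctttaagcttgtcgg
HSP14.7: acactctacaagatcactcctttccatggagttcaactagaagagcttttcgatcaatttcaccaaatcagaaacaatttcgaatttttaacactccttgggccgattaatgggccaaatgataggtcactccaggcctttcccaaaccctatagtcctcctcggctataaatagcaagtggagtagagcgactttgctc
HSP18.1: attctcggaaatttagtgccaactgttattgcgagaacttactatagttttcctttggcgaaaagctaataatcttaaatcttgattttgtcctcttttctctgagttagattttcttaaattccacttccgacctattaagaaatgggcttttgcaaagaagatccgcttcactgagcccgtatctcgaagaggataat
These windows lie at chr3:16984868-16985067 on the minus strand for HSP17.4A (AT3G46230), chr3:19264941-19265140 on the plus strand for HSFA7A (AT3G51910), chr4:11604638-11604837 on the minus strand for HSP15.4 (AT4G21870), chr5:19300504-19300703 on the minus strand for HSP14.7 (AT5G47600) and chr5:24062123-24062322 on the plus strand for HSP18.1 (AT5G59720). The windows of HSP17.4A and HSFA7A each hold 4 cores in 2 overlapping pairs, whereas none of the windows of HSP15.4, HSP14.7 and HSP18.1 holds a core.

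Over windows from 250 bases before to 50 bases after the annotated start, 19 of the 60 members (31.7%) hold at least 1 core, beside 19.3% of 27439 protein-coding genes. The 3-unit run, GAANNTTCNNGAA or TTCNNGAANNTTC, stands in 7 members (11.7%) and in 0.481% of all these genes. Among members of at least 1 RPKM, a core stands in 7 of the 16 that changed and in 6 of the 32 that did not. Of the 12 members that fell, 6 hold a core and 3 a 3-unit run (HSFA2, HSFA7A and HSP17.4A), and of the 4 that rose, 1 holds a core and none a 3-unit run. A match of letters is a description, and its absence from a window says nothing of which factor acts on the gene.

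Among the class A factors, the HSFA1 genes, which encode the master activators of the heat response, did not change. HSFA1A, HSFA1B, HSFA1D and HSFA1E had WT means from 2.264 to 7.231 RPKM and deposited log2 fold changes from -0.12 to 0.16 over the 3 tables of the authors. The recovered ldl1/2 libraries of HSFA1A stood apart, at 5.959 and 3.823 RPKM. Their ratio of 1.56 was the largest among members of at least 1 RPKM recovered in ldl1/2. The class as a whole was expressed at low levels, from 1.98 to 11.14 RPKM in WT, with HSFA8 the highest. Of its 12 members, none rose in any comparison, 2 fell in hda6, 1 in ldl1/2 and 3 in the hda6/ldl1/2-labelled samples. Of all genes, 4.31%, 4.09% and 7.82% fell in that order, and 4.38%, 4.41% and 9.59% rose.

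HSFA2 (AT2G26150, chromosome 2, 11135624 to 11137792), a heat-induced factor that prolongs acquired thermotolerance, fell in hda6. Its recovered WT libraries stood at 2.227, 2.041 and 1.683 RPKM and its ldl1/2 libraries at 2.254 and 1.839 RPKM, while the rebuilt means were 1.043 RPKM in hda6 and 1.728 RPKM in the hda6/ldl1/2-labelled samples. The hda6 mean thus lay below every recovered library. In the authors' deposited tables the log2 fold change was -0.87 in hda6 (FDR 0.012, implied SE 0.25), 0.01 in ldl1/2 and -0.07 in the hda6/ldl1/2-labelled samples. The difference between mutants was not tested.

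HSFA4A (AT4G18880, chromosome 4, 10347479 to 10349902), a factor known from responses to oxidative stress, fell in both groups that carry the hda6 label. The recovered WT libraries were close together at 7.086, 6.948 and 6.38 RPKM, the ldl1/2 libraries stood at 6.485 and 8.56 RPKM, and the rebuilt means were 4.423 RPKM in hda6 and 3.724 RPKM in the hda6/ldl1/2-labelled samples. Both rebuilt means lay under all WT and ldl1/2 libraries. In the authors' deposited tables these were log2 fold changes of -0.56 (FDR 0.000245) and -0.74 (FDR 2.56e-07), beside 0.11 in ldl1/2.

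HSFA7A (AT3G51910, chromosome 3, 19265141 to 19266806), a heat-induced factor, fell in ldl1/2. WT libraries were recovered at 6.446, 6.641 and 6.886 RPKM and hda6 libraries at 6.726 and 6.937 RPKM, a narrow range. The rebuilt means were 4.047 RPKM in ldl1/2 and 4.201 RPKM in the hda6/ldl1/2-labelled samples, both well below it. The authors' deposited log2 fold change was -0.75 in ldl1/2 (FDR 0.00434) and, without passing the threshold, -0.53 in the hda6/ldl1/2-labelled samples (FDR 0.0555). In hda6 the authors' deposited table gave 0.09.

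HSFA6B (AT3G22830, chromosome 3, 8078789 to 8081059), which takes part in abscisic acid responses, and HSFA8 (AT1G67970, chromosome 1, 25484449 to 25486512) fell in the hda6/ldl1/2-labelled samples. HSFA6B stood at 2.401, 2.315 and 1.695 RPKM in the recovered WT libraries, and its rebuilt means were 1.997 RPKM in hda6, 1.36 in ldl1/2 and 1.048 in the hda6/ldl1/2-labelled samples. Its authors' deposited log2 fold changes were -0.04, -0.68 (FDR 0.196) and -0.90 (FDR 0.0201) in that order. HSFA8 stood at 10.9, 11.51 and 11.03 RPKM in WT, with rebuilt means of 8.865, 9.442 and 6.803 RPKM in the same order of mutants. Its authors' deposited log2 fold changes were -0.27, -0.27 and -0.58 (FDR 7.06e-05). For both genes the mean of the hda6/ldl1/2-labelled samples lay below all WT libraries. The other 7 class A factors, HSFA3, HSFA4C, HSFA5 and the 4 HSFA1 genes, had deposited log2 fold changes between -0.36 (HSFA5 in ldl1/2) and 0.16 in the authors' deposited tables.

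Of the 4 class B factors, 2 fell in hda6, 1 in ldl1/2 and 2 in the hda6/ldl1/2-labelled samples, and none rose. Of all genes, 4.31%, 4.09% and 7.82% fell in that order, and 4.38%, 4.41% and 9.59% rose. The class B sum was 71.93 RPKM in WT, 42.24 in hda6, 62.6 in ldl1/2 and 34.21 in the hda6/ldl1/2-labelled samples. Most of it came from HSFB1. HSFB1 (AT4G36990, chromosome 4, 17440177 to 17442151), a repressor that is also needed for acquired thermotolerance, was the most abundant of all 17 factors. Its WT libraries were recovered at 56.63, 59.48 and 42.25 RPKM, and its rebuilt means were 26.79 RPKM in hda6, 45.71 in ldl1/2 and 22.48 in the hda6/ldl1/2-labelled samples. The means of both groups with the hda6 label lay below the lowest WT library, and that of ldl1/2 lay within the WT range. In the authors' deposited tables the log2 fold change was -0.92 in hda6 (FDR 1.34e-13), -0.24 in ldl1/2 (FDR 0.342) and -1.10 in the hda6/ldl1/2-labelled samples (FDR listed as 0).

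HSFB2A (AT5G62020, chromosome 5, 24915807 to 24917643), another class B factor, fell in all 3 comparisons. Recovered WT libraries stood at 5.797, 6.028 and 5.577 RPKM, and the rebuilt means at 3.115 RPKM in hda6, 3.83 in ldl1/2 and 2.122 in the hda6/ldl1/2-labelled samples. Every mutant mean lay under the WT libraries. The authors' deposited log2 fold changes were -0.84 (FDR 0.0005), -0.63 (FDR 0.0229) and -1.32 (FDR 1.74e-09), with implied SEs of 0.19, 0.19 and 0.2. Since the comparisons share their WT, 3 calls are not 3 independent observations.

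The repressor HSFB2B did not change, with authors' deposited log2 fold changes of -0.15, -0.09 and -0.25 in hda6, ldl1/2 and the hda6/ldl1/2-labelled samples. HSFB4, known as SCHIZORIZA for its role in the asymmetric divisions of root stem cells, had WT libraries at 7.422, 6.667 and 4.718 RPKM, one of the wider spreads among members of at least 1 RPKM. Its authors' deposited log2 fold change was -0.44 (FDR 0.103) in the hda6/ldl1/2-labelled samples, where the mean of 4.203 RPKM lay below those libraries. Both root markers on the list fell in the same comparison, CASP1 by 1.18 and PHT1;1 by 0.99 on the log2 scale of the authors' deposited table, and their part in the value of HSFB4 was not tested.

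HSFC1 (AT3G24520, chromosome 3, 8941066 to 8942874) is the single class C factor of Arabidopsis. WT libraries stood at 12.85, 13.82 and 12.63 RPKM, and the rebuilt means at 10.77 RPKM in hda6, 11.68 in ldl1/2 and 5.433 in the hda6/ldl1/2-labelled samples, the last of these less than any WT library. The authors' deposited log2 fold changes were -0.23 (FDR 0.823), -0.20 (FDR 0.976) and -1.14 (FDR 3.52e-08). The gene is covered over 1808 bases by the antisense gene AT3G24518, which rose in the hda6/ldl1/2-labelled samples by 1.01 (FDR 0.000206) in the authors' deposited table, from 2.11 to 3.87 RPKM. In hda6 and ldl1/2 AT3G24518 had 0.59 (FDR 0.126) and -0.64 (FDR 0.0992) in the authors' deposited tables. No source used here says whether the counting used the strand, and without it reads of these overlapping genes cannot be told apart.

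A second gene beside HSFC1, AT3G24517, was looked at after its value had been seen. It lies 2424 bases upstream of HSFC1 on the other strand and is listed at 0 in WT and in ldl1/2. Its reads were recovered as 15 and 60 in the hda6 libraries (mean 1.61 RPKM), which stood apart from each other, and as 85 and 84 in those labelled hda6/ldl1/2 (mean 3.7 RPKM). Against a floor of 3 reads over all WT libraries together, 0.0405 RPKM, it was at least 39.7-fold higher in hda6 and at least 91.4-fold higher in the hda6/ldl1/2-labelled samples. It rose in both by the authors' deposited tables, with FDRs of 0.0105 and 0.000917, and in ldl1/2 it did not (FDR 1).

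**Figure D2:**
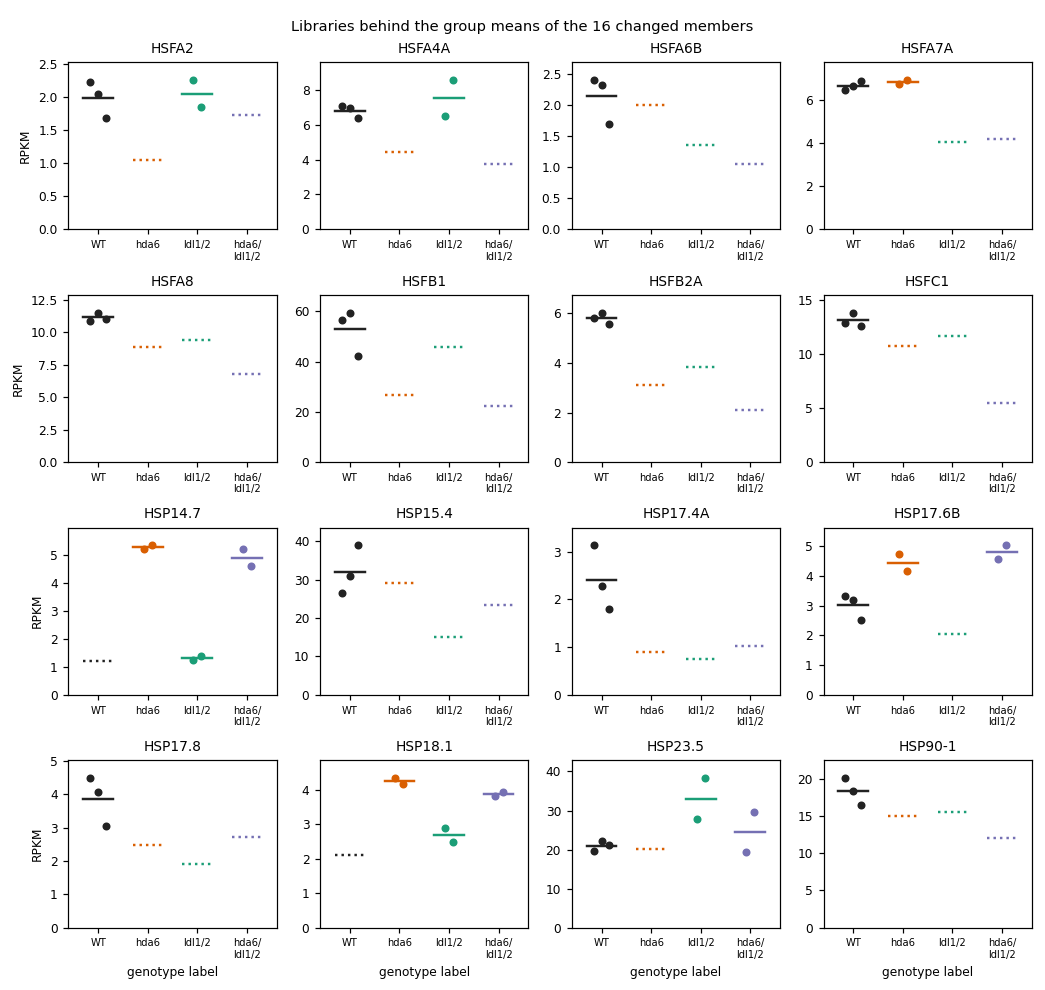
RPKM (vertical axis, from 0) of the 16 members that changed in at least 1 comparison, by genotype label. Points are recovered libraries, solid lines printed group means and dotted lines rebuilt group means, which have no library values; for HSFB1 and HSFC1 the dotted line of hda6/ldl1/2 lies under every WT point, and for HSP14.7 all hda6 and hda6/ldl1/2 points lie above the WT line.

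The small heat shock proteins moved in both directions. Of the 13 members, 2 rose and 1 fell in hda6, 1 rose and 3 fell in ldl1/2, and 3 rose and none fell in the hda6/ldl1/2-labelled samples. Of all genes, 4.38% rose and 4.31% fell in hda6, 4.41% and 4.09% in ldl1/2, and 9.59% and 7.82% in the hda6/ldl1/2-labelled samples. The summed RPKM of the 13 members ranged from 131.6 in ldl1/2 to 152.9 in WT. The 3 most abundant genes, HSP18.5, HSP15.4 and HSP23.5, made up most of it, and in ldl1/2 HSP15.4 fell while HSP23.5 rose. HSP18.5 was the highest at 56.75, 61.32 and 64.72 RPKM in the WT libraries, and it did not change, with deposited log2 fold changes of -0.25, -0.32 and -0.21 in the authors' tables.

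HSP14.7 (AT5G47600, chromosome 5, 19299717 to 19300503) had the largest rise among the 48 members, and its upstream window holds no core. Its libraries were recovered at 5.195 and 5.332 RPKM in hda6, from 165 and 170 reads, at 5.205 and 4.587 RPKM in the hda6/ldl1/2-labelled samples, and at 1.26 and 1.399 RPKM in ldl1/2. The rebuilt WT mean was 1.21 RPKM, so the libraries of both groups with the hda6 label lay far above WT and ldl1/2. The authors' deposited log2 fold change was 2.18 in hda6 (FDR 6.59e-10) and 2.14 in the hda6/ldl1/2-labelled samples (FDR 1.09e-09), beside 0.11 in ldl1/2.

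The genes beside HSP14.7 were looked at after this value had been seen. The nearest downstream gene, AT5G47590, lies 542 bases away on the same strand and also encodes a protein of the HSP20 family per RefSeq. It rose by 1.02 in hda6 (FDR 3.05e-05) and by 1.58 in the hda6/ldl1/2-labelled samples (FDR 5.57e-13), and stood at -0.52 in ldl1/2 (FDR 0.223), in the authors' deposited tables. On the other side ATL79 rose by 0.78 (FDR 0.000712) in the hda6/ldl1/2-labelled samples and stood at -0.01 in hda6, per the authors' deposited tables. Among the 4 genes farther out, AT5G47620 fell in the hda6/ldl1/2-labelled samples, with -0.37 (FDR 0.0181), and there was no other change in the authors' deposited tables. Genes beside HSP18.1, HSP15.4 and HSP17.4A were looked at as well. Near HSP18.1 none changed in hda6. ATEXO70H7 fell in ldl1/2 (-0.46, FDR 0.00324) and in the hda6/ldl1/2-labelled samples (-0.41, FDR 0.00667), and AT5G59732 rose in the latter (1.66, FDR 0.000359). Near HSP15.4, AT4G21865 rose in ldl1/2 (1.07, FDR 0.0117). MSRB9 fell in all 3 comparisons, at -0.48 in hda6 (FDR 0.00167), -0.96 in ldl1/2 (FDR 2.83e-13) and -0.91 in the hda6/ldl1/2-labelled samples (FDR 3.8e-12). None beside HSP17.4A changed.

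**Figure D3:**
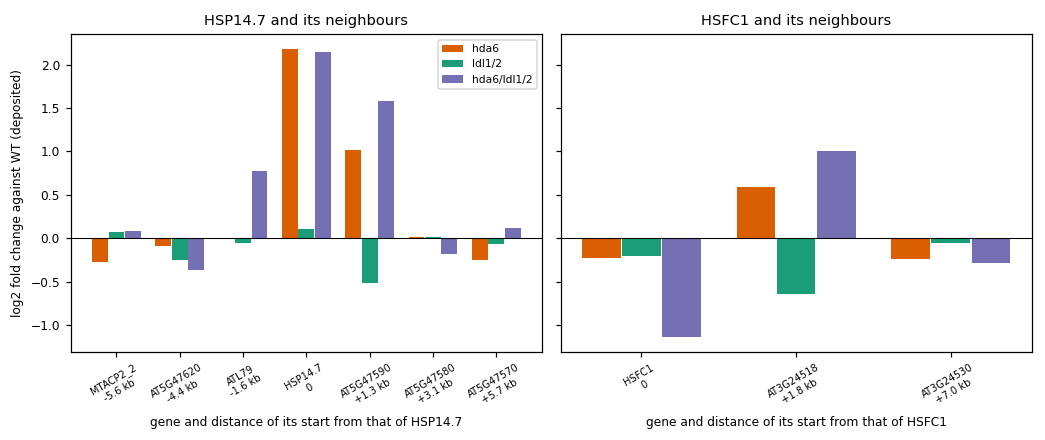
Log2 fold changes as deposited (vertical axis) of HSP14.7 and HSFC1 and of the genes beside each, ordered by the distance between gene starts in kilobases in the direction of that gene's transcription; genes whose mean lay under 0.1 RPKM in any group are left out, among them AT3G24517, which is listed at 0 in WT and whose values stand in the text. HSP14.7 and AT5G47590 both stand above 1 in hda6 and hda6/ldl1/2, and HSFC1 and its antisense gene AT3G24518 stand on opposite sides of 0 in hda6/ldl1/2.

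HSP18.1 (AT5G59720, chromosome 5, 24062323 to 24063300), a cytosolic class I protein, rose in the same groups as HSP14.7. Libraries were recovered at 4.342 and 4.175 RPKM in hda6, at 3.828 and 3.934 RPKM in the hda6/ldl1/2-labelled samples and at 2.899 and 2.496 RPKM in ldl1/2, above a rebuilt WT mean of 2.113 RPKM. The libraries of the groups with the hda6 label did not overlap those of ldl1/2. In the authors' deposited tables its log2 fold change was 1.07 in hda6 (FDR 0.00103), 1.01 in the hda6/ldl1/2-labelled samples (FDR 0.00159) and 0.32 in ldl1/2 (FDR 0.913). As a ratio of RPKM means the value of the hda6/ldl1/2-labelled samples falls below 1.

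HSP17.6B (AT2G29500, chromosome 2, 12633065 to 12634120), also of class I, rose in the hda6/ldl1/2-labelled samples. Its WT libraries stood at 3.333, 3.175 and 2.532 RPKM, its hda6 libraries at 4.721 and 4.166 RPKM, those labelled hda6/ldl1/2 at 4.583 and 5.024 RPKM, and its rebuilt ldl1/2 mean at 2.062 RPKM. The hda6 and hda6/ldl1/2 libraries all lay above the WT libraries and the ldl1/2 mean below them. The authors' deposited log2 fold change was 0.81 (FDR 0.00648) in the hda6/ldl1/2-labelled samples, beside 0.62 (FDR 0.104) in hda6 and -0.58 (FDR 0.221) in ldl1/2. As a ratio of recovered RPKM means it was 0.67 on the log2 scale, and 0.56 to 0.75 without any 1 library.

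HSP23.5 (AT5G51440, chromosome 5, 20891163 to 20892416), a mitochondrial small heat shock protein, was the one member that rose in ldl1/2. WT libraries stood at 19.73, 22.11 and 21.16 RPKM and ldl1/2 libraries at 27.84 and 38.27 RPKM, without overlap. The libraries labelled hda6/ldl1/2 stood apart from each other at 19.35 and 29.55 RPKM, on either side of the WT values. In the authors' deposited tables the log2 fold change was 0.62 in ldl1/2 (FDR 0.00416), 0.35 in the hda6/ldl1/2-labelled samples (FDR 0.191) and -0.01 in hda6. As a ratio of recovered RPKM means the ldl1/2 value was 0.65 on the log2 scale, 0.41 without ldl1/2 library 2 and 0.87 without ldl1/2 library 1, with no test of either.

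HSP15.4 (AT4G21870, chromosome 4, 11603481 to 11604637) fell in ldl1/2. It was abundant in WT, at 26.53, 30.81 and 38.86 RPKM, and its rebuilt means were 15.03 RPKM in ldl1/2, 29.12 in hda6 and 23.26 in the hda6/ldl1/2-labelled samples. The ldl1/2 mean lay well below the lowest WT library, and that of hda6 lay within the WT range. The authors' deposited log2 fold change was -1.13 in ldl1/2 (FDR 9.97e-09), -0.08 in hda6 and -0.33 (FDR 0.264) in the hda6/ldl1/2-labelled samples. Like HSP14.7 and HSP18.1, its upstream window holds no core.

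HSP17.4A (AT3G46230, chromosome 3, 16984118 to 16984867), a class I protein with the 4 cores shown above, fell in hda6 and ldl1/2. Its WT libraries differed among themselves, at 3.129, 2.275 and 1.808 RPKM from 114, 86 and 70 reads. The rebuilt means were 0.9052 RPKM in hda6, 0.7423 in ldl1/2 and 1.016 in the hda6/ldl1/2-labelled samples, all of them below each WT library. The authors' deposited log2 fold changes were -1.35 (FDR 0.0294), -1.73 (FDR 0.00283) and -1.11 (FDR 0.069), with implied SEs of 0.42, 0.44 and 0.42. The gene overlaps AT3G46220, on the other strand, over 60 bases.

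HSP17.8 (AT1G07400, chromosome 1, 2274926 to 2275783) fell in ldl1/2, from WT libraries at 4.486, 4.069 and 3.048 RPKM to a rebuilt mean of 1.923 RPKM. Its authors' deposited log2 fold change was -1.04 (FDR 0.00981) there, -0.59 (FDR 0.334) in hda6 and -0.37 (FDR 0.588) in the hda6/ldl1/2-labelled samples. HSP17.6A, whose coding sequence is 88.1% identical to that of HSP17.8, so that reads may have been split between them, had -0.98 (FDR 0.185) in ldl1/2 in the authors' deposited table. Among members of at least 1 RPKM with recovered reads it had the widest spread of WT libraries, 2.085, 1.813 and 1.067 RPKM, and it lies just inside the limit for description, with a WT mean of 1.655 RPKM.

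The other small heat shock proteins did not change. HSP1, the peroxisomal HSP15.7, HSP17.4B and HSP21.7 had deposited log2 fold changes between -0.28 and 0.33 in the authors' deposited tables, at WT means from 2.307 to 8.99 RPKM.

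The HSP60, HSP70 and HSP90 classes hold the most abundant members, and only HSP90-1 among their 18 members passed the threshold in any comparison. Of all genes, 24.0% changed in at least 1 comparison. HSP60-2 and HSP60-3A, mitochondrial chaperonins, stood at 26.42 and 21.41 RPKM in WT, and their log2 fold changes lay between -0.20 and 0.16 in the authors' deposited tables. HSP70 genes under other names are not part of the class, among them the abundant MED37E, or HSC70-1, at 1048 RPKM in WT and 1251 RPKM in ldl1/2. Over the 9 HSP70 members alone, summed levels were 550.2 RPKM in WT, 499.7 in hda6, 603.2 in ldl1/2 and 513.1 in the hda6/ldl1/2-labelled samples. On the scale of the deposited fold changes, which stands 0.13 (log2) higher than the ratio of RPKM means in the last group, the median HSP70 value there was 0.04 in the authors' table, so the direction of that class sum depends on the scaling.

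Among the HSP70 members, HSP70-3, a cytosolic form, reached the highest group mean at 153.7 RPKM in ldl1/2, from libraries at 152.9 and 154.5 RPKM, beside 130.3 RPKM in WT. It shares 863 bases with AT3G09430 on the other strand. Its authors' deposited log2 fold changes were 0.21 in ldl1/2 (FDR 0.514), -0.31 in hda6 (FDR 0.0826) and -0.07 in the hda6/ldl1/2-labelled samples. The plastid forms HSP70-6 and HSP70-7 lay between -0.05 and 0.15 over the authors' deposited tables. The mitochondrial HSP70-9 stood at 52.13, 53.19 and 52.63 RPKM in the WT libraries and 62.12 and 72.91 RPKM in those of ldl1/2, which did not overlap, and the authors' deposited table gave a log2 fold change of 0.33 (FDR 0.0692). Of these members, HSP70-8 had the lowest value in ldl1/2 and in the hda6/ldl1/2-labelled samples. Its log2 fold changes there were -0.63 (FDR 0.166) and -0.62 (FDR 0.103) in the authors' deposited tables, from a WT mean of only 2.192 RPKM.

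HSP90-1 (AT5G52640, chromosome 5, 21352557 to 21355147), the heat-induced cytosolic HSP90, fell in the hda6/ldl1/2-labelled samples. WT libraries stood at 20.1, 18.4 and 16.45 RPKM, and the rebuilt means at 14.97 RPKM in hda6, 15.61 in ldl1/2 and 12.11 in the hda6/ldl1/2-labelled samples. All 3 mutant means lay below the WT libraries. The authors' deposited log2 fold changes were -0.23 (FDR 0.363), -0.26 (FDR 0.27) and -0.47 (FDR 0.00141). The cytosolic HSP81-2, HSP90-3 and HSP90-4, which are made without heat, did not change, with values between -0.27 and 0.13 in the authors' deposited tables. Their coding sequences are 90.5% to 95.4% identical to each other, so their separate levels are uncertain. The plastid HSP90-5, the member with the highest level of all, stood at 185 RPKM in WT and 206.5 RPKM in ldl1/2. HSP90-5, the mitochondrial HSP90-6 and HSP90-7 of the endoplasmic reticulum had log2 fold changes between -0.16 and 0.15 in the authors' deposited tables.

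**Figure D4:**
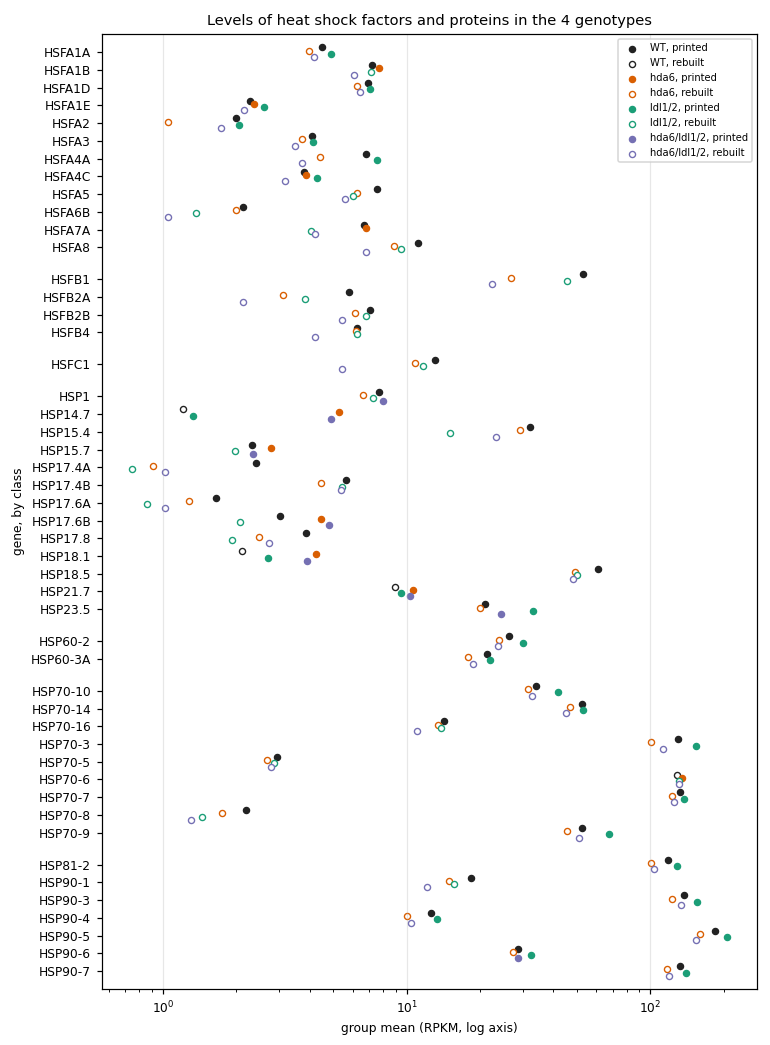
Group means (horizontal axis, RPKM, log axis) of the 48 members in the 4 genotypes, grouped by class. Filled points are means printed in the deposited tables and open points means rebuilt from the fold change. Factors lie between about 1 and 53 RPKM, and HSP90-5 lies highest, at 206.5 RPKM in ldl1/2 and 185 RPKM in WT.

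The 12 members under 1 RPKM in every table were HSFA6A, HSFA7B, the seed factor HSFA9, HSFB3, HSP17.6, HSP17.6C, HSP17.7, the plastid HSP21, HSP22.0 of the endoplasmic reticulum, the mitochondrial HSP23.6, HSP26.5 and HSP70-18. HSP26.5 was the closest to the limit, with a WT mean of 0.9192 RPKM, and fell in hda6, with -2.62 (FDR 0.000942) in the authors' deposited table. HSP17.7 fell in hda6 and ldl1/2, with -1.97 (FDR 0.0405) and -2.54 (FDR 0.00816) from 0.7947 RPKM in WT, in the authors' deposited tables. Its coding sequence is 86.1% identical to that of the adjacent HSP17.6, which had -2.08 (FDR 0.0705) in hda6 in the authors' deposited table. Neither gene passes the threshold in the hda6/ldl1/2-labelled samples.

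The spread of the WT libraries bears on all these values. For 38 members of at least 1 RPKM whose WT reads could be recovered, the ratio of the highest to the lowest library ran from 1.02 (HSFA3) to 1.95 (HSP17.6A), with a median of 1.14, and reached 1.5 only in HSFB4, HSP17.4A and HSP17.6A. Members under 1 RPKM with few reads spread more widely, with ratios of 4.52 in HSFB3, 2.66 in HSP17.6C, 2.05 in HSP22.0, 1.98 in HSP26.5, 1.9 in HSP17.6 and 1.76 in HSP17.7. The falls of HSP26.5 and HSP17.7 thus rest on WT totals of 144 and 105 reads, from libraries at 0.5938 to 1.178 RPKM and at 0.571 to 1.003 RPKM. The largest WT library was the lowest of the 3 in 20 of the 38 members (52.6%), and in 53.1% of 5198 genes with recovered reads. Those genes were limited to low read counts and the members were not, so the shares stand at unlike levels. Among those 20 were HSFA2, HSFA4A, HSFA6B, HSFB1, HSFB2A, HSFC1, HSP17.4A, HSP17.6B, HSP17.8 and HSP90-1, all of which changed in at least 1 comparison. Without that library the rise of HSP17.6B stood at 0.56 against 0.67 (log2 ratio of RPKM means). For the genes among them that fell, leaving out their lowest WT library raises the WT mean, and the calls without it were not tested.

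Genes that work with the members were followed on lists by locus. Of 9 chaperones of the same families under other names, 4 fell and none rose in hda6, none changed in ldl1/2, and 4 fell and none rose in the hda6/ldl1/2-labelled samples. The median log2 fold changes were -0.16, -0.06 and -0.18 in the authors' deposited tables, against -0.01 over all genes in each. Of all genes of at least 1 RPKM, 4.31%, 4.09% and 7.82% fell and 4.38%, 4.41% and 9.59% rose in that order. MED37C, the cytosolic HSP70-4, fell by 0.47 in hda6 (FDR 0.00133) and by 0.87 in the hda6/ldl1/2-labelled samples (FDR 3.22e-12) in the authors' deposited tables, from 37.92 RPKM in WT to a rebuilt 18.94 RPKM in the latter. MED37D, or HSC70-2, fell in hda6, with -0.63 (FDR 0.00107) in the authors' deposited table. Among the HSP70 genes of the endoplasmic reticulum, those that fell were BIP, at -0.34 (FDR 0.0423) in hda6 and -0.38 (FDR 0.011) in the hda6/ldl1/2-labelled samples, and the stress-induced MED37B, or BIP3, at -3.65 (FDR 3.12e-07) and -1.85 (FDR 0.0158), in the authors' deposited tables. MED37B was low, at 1.757 RPKM in WT, with rebuilt means of 0.1345 RPKM in hda6 and 0.4432 RPKM in the hda6/ldl1/2-labelled samples. MED37A, or BIP1, a near-copy of BIP that may share its reads, had -0.16 (FDR 0.695) and -0.17 (FDR 0.468) there in the authors' deposited tables. The mitochondrial CLPB4 fell in the hda6/ldl1/2-labelled samples, with -0.37 (FDR 0.022) in the authors' deposited table.

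By its RefSeq symbol HSP101, CLPB1 is the cytosolic HSP100 disaggregase on which acquired thermotolerance depends. It fell in ldl1/2, with -0.38 (FDR 0.03), and in the hda6/ldl1/2-labelled samples, with -0.52 (FDR 0.000335), in the authors' deposited tables, from 7.339 RPKM in WT to rebuilt means of 5.754 and 4.66 RPKM. AT1G79920, named Hsp70-15 in RefSeq, fell in the hda6/ldl1/2-labelled samples, with -0.34 (FDR 0.0275) in the authors' deposited table. Of 6 genes with such RefSeq symbols, MED37C and MED37D included, 2 fell in hda6, 1 in ldl1/2 and 3 in the hda6/ldl1/2-labelled samples, and none rose. The shares of all genes that fell were 4.31%, 4.09% and 7.82% in that order.

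Of 15 co-chaperones and partners of the heat response, 14 had at least 1 RPKM. In the hda6/ldl1/2-labelled samples, 9 of them fell and 1 rose, and the median of the 14 was -0.35 (log2 fold change) in the authors' deposited table. Of all genes of at least 1 RPKM, 7.82% fell and 9.59% rose in these samples, with a median of -0.01. MBF1C, a coactivator upstream of HSFB factors, fell by 0.75 (FDR 5.35e-06), and HOP3, which links HSP70 to HSP90, fell by 0.86 (FDR 1.02e-06) in the authors' deposited table. DREB2A, an activator of HSFA3, fell by 0.68 (FDR 0.00749) in the authors' deposited table. FKBP65, Fes1A, HOP2_2, ROF1, ATJ2 and BOB1 fell as well, at values from -0.53 (FKBP65) to -0.33 (ROF1) in the authors' deposited table. In hda6, ATJ2, BOB1 and MBF1C fell, and in ldl1/2, DREB2A (-0.73, FDR 0.00619), FKBP65 and HOP3 (-0.58, FDR 0.0046) fell, in the authors' deposited tables. GOLS1, a galactinol synthase gene controlled by heat shock factors, was the exception and rose in hda6 by 0.65 and in the hda6/ldl1/2-labelled samples, per the authors' deposited tables.

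Of 9 genes of the response to unfolded proteins in the endoplasmic reticulum, 4 fell in hda6, none changed in ldl1/2 and 2 fell in the hda6/ldl1/2-labelled samples, and none rose. Among all genes of at least 1 RPKM, 4.31%, 4.09% and 7.82% fell in that order. The calreticulin gene CRT3 fell by 0.88 in hda6 (FDR 2.14e-12) and by 0.85 in the hda6/ldl1/2-labelled samples (FDR 1.29e-11), and the co-chaperone gene ERDJ3A by 1.11 (FDR 7.93e-06) and 0.73 (FDR 0.00624), in the authors' deposited tables. In hda6 the transcription factor BZIP60 also fell, with -0.46 (FDR 0.00219), as did ERDJ3B, with -0.34 (FDR 0.0466), in the authors' deposited table. Whether hda6 and the hda6/ldl1/2-labelled samples differ in these genes was not tested.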

How the data were processed

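Total RNA of 14-day-old seedlings of 4 genotypes was sequenced with paired reads. Per the submitters' processing notes, Bowtie and TAIR10 were used. No source used here gives the test, its settings or the use of strand. The 3 deposited tables hold, for each gene, the larger group mean in RPKM, with the authors' p-value, FDR and log2 fold change and a score that is the same fold change with a sign; the unit of the mean was read from the values. They hold no values per library, so the planned fit over libraries was not run, and the deposited FDR was used as the test, with a threshold of 0.05, a minimum of 1 RPKM and a rule of size at 1 or -1 on the log2 scale. A log2 fold change carries the standard error implied by its deposited p-value (median 0.16 over members in each table). No columns of other series were found (0).

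Library sizes were found from the smallest means times exon length, and a group mean was then split into whole reads for each library of its group. A single solution was found for 97.6% (WT), 98.4% (hda6), 97.2% (ldl1/2) and 98.8% (hda6/ldl1/2) of 500 genes in each group, and for 0% when exon lengths were 1 base too long. The method was also tested on simulated data. Neither check reached the read counts of the most abundant members, so the libraries recovered for those are unchecked. WT means above 9000 reads were not split, and HSP17.4A and HSP1 needed the gene span as their length. Library numbers only name libraries. Lower means were rebuilt from the deposited log2 fold change after an offset (-0.06 in hda6, 0.03 in ldl1/2, -0.13 in hda6/ldl1/2), with a median error of 0.0843%, 0.0873% and 0.106%. Precision at these depths covers counting error only.

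Positions in the tables matched 33191 genes and all 60 members to TAIR10.1 exactly, whose genome gave the upstream sequences. Members and lists were chosen with earlier results of these data known. Named with values were members past the deposited FDR or the rule of size in any table, the most abundant of each class and list genes past the FDR; others named for their spread, position or neighbours were chosen after their values were seen. Alternatives changed the minimum level, the threshold, a pseudocount of 1, the scaling, the membership and, where both arms had recovered libraries, the libraries used. A fold against a WT of 0 is a lower bound against 3 reads over the WT group. Analyses used Python 3.11.15, pandas 2.3.3, numpy 2.4.6, scipy 1.17.1 and matplotlib 3.10.9.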

Additional observations from a re-analysis of the deposited data

How the results depend on the processing

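Of 103 values under alternative settings, 72 stayed within 1.5 times the reported count, or within the implied standard error for a median or a fold, and 31 moved. All medians stayed within that error, but as ratios of RPKM means they were -0.17 in hda6, 0.01 in ldl1/2, where the sign turned, and -0.21 in hda6/ldl1/2. No paired analysis was possible because each genotype has 1 sample in GEO and the tables carry no replicate numbers.

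With a minimum of 5 RPKM, members past the FDR were 1 higher and 3 lower in hda6, 3 lower in ldl1/2 and 0 higher in hda6/ldl1/2, and by the size rule 1 higher and 0 lower in hda6, 1 lower in ldl1/2 and 0 higher in hda6/ldl1/2. An FDR under 0.01 left 3 lower in hda6. Requiring the FDR and the size rule left 1 lower in hda6, 0 higher and 3 lower in ldl1/2 and 3 lower in hda6/ldl1/2. Adding the other-named chaperones gave 9 lower in hda6 and 11 in hda6/ldl1/2. By the size rule, a pseudocount of 1 gave 1 higher and 0 lower in hda6, 1 lower in ldl1/2, and 1 higher and 2 lower in hda6/ldl1/2. Without a minimum the size rule gave 5 higher and 5 lower in hda6 and 8 lower in ldl1/2. A size of 0.5 gave 6 lower in hda6, 1 higher and 9 lower in ldl1/2 and 10 lower in hda6/ldl1/2. The ratio of RPKM means gave 1 higher in hda6/ldl1/2. With p-values adjusted over genes of at least 1 RPKM, a setting chosen after seeing the data, 2 members were higher in ldl1/2, since HSP70-9 passed at an adjusted p of 0.0413, and HSP18.5 in ldl1/2 (0.0496) and HSFA7A (0.0348) and HSP17.4A (0.0434) in hda6/ldl1/2 passed as lower. Fewer genes, or genes of lower level, enter by construction under these minimums; the cause of the other moves was not tested.

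Low genes limit what can be said, as HSP14.7 in WT and the members under 1 RPKM rest on few reads. Leaving out a library, chosen after seeing the data, was possible as a value with no test for the calls with libraries recovered in both arms. The log2 ratio of RPKM means ranged from 0.41 to 0.87 for HSP23.5 in ldl1/2 and from 0.56 to 0.75 for HSP17.6B in hda6/ldl1/2. The other calls lack the libraries of 1 arm.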
